A study of Homo sapiens with 5 samples.

Results

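The 78 genes described here encode the proteins of the cytosolic ribosome. They were taken from 20098 protein-coding genes on chromosomes 1 to 22 and X by symbol, as RPL or RPS followed by a number, together with RPLP0, RPLP1, RPLP2, RPSA and FAU. Kinases of the RPS6K family, readthrough genes and the L-suffixed paralogs, such as RPL3L and RPL7L1, were left out. Of the members, 46 encode large subunit proteins and 32 encode small subunit proteins, and they lie on 21 chromosomes. LM2 cells, a lung-metastatic derivative of the triple-negative breast cancer line MDA-MB-231, were untreated according to the sample labels, and chromatin was immunoprecipitated with antibodies against Fra-1, MYC or E2F1. The study's supplement speaks of control vector or shRNA cells in connection with ChIP-Seq, so whether the cells carried a vector could not be settled. Each factor was profiled in 1 library, all from the same line, and the same input chromatin served as the control for each. There were no replicates, so no difference below was tested against the variation between cultures. An EZH2 library is also among the samples, and no peak list was used for it here.

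Ribosomal proteins are needed in nearly equal amounts and their genes are transcribed at high rates in growing cells. Most of their mRNAs start with a C followed by a run of pyrimidines, the terminal oligopyrimidine (TOP) tract, through which their translation responds to mTOR signaling. MYC, a transcription factor that binds the E-box CACGTG, is known for activating ribosome production. E2F1 is a cell cycle transcription factor, and Fra-1, encoded by FOSL1, is a subunit of the AP-1 factor, which binds TGACTCA or TGAGTCA.

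The tract is visible at the start sites themselves, which are shown for genes that the results below turn on. Each line holds 15 bases before and 15 bases from the canonical transcription start site (TSS) of the gene, in the direction of transcription, and capitals mark a pyrimidine tract of at least 5 bases that begins with C at the start site. The bases were read from GRCh37. RPL5 is at chr1:93297582-93297611 on the plus strand, RPL29 at chr3:52029897-52029926 on the minus strand, RPL36 at chr19:5690291-5690320 on the plus strand, RPS6 at chr9:19380220-19380249 on the minus strand, RPL38 at chr17:72199802-72199831 on the plus strand, RPLP2 at chr11:809952-809981 on the plus strand and RPL10A at chr6:35436163-35436192 on the plus strand.
RPL5: cgcaagggctgtggcCCTTTTCCCaccccc
RPL29: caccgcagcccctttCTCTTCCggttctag
RPL36: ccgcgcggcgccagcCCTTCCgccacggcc
RPS6: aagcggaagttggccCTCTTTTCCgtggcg
RPL38: aacggaagtctcgttCTTTTTCgtcctttt
RPLP2: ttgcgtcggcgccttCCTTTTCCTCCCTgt
RPL10A: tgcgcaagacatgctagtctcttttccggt

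Of the 78 ribosomal protein genes, 59 (75.6%) had such a tract at the annotated canonical TSS, with a median length of 8 bases and a maximum of 19. The same criterion was met by 4.32% of 19741 other protein-coding genes, by 5 of 78 mitochondrial ribosomal protein genes and by 15 of 17 other genes known for TOP mRNAs, such as those of translation elongation factors. RPL10A was among the 19 members without a tract at the annotated base, although a pyrimidine run lies a few bases downstream in its sequence.

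MYC peaks were found at almost all ribosomal protein genes. A promoter was taken as 2 kb upstream to 2.5 kb downstream of any annotated TSS, and a gene was counted when a peak overlapped this window by at least 1 bp. By this rule 74 of 78 members (94.9%) had a MYC peak, against 17.5% of the 20020 other protein-coding genes. E2F1 peaks lay at 76 members (97.4%), against 61.2% of the others. Fra-1 peaks lay at 12 members (15.4%), against 13.2% of the others, so with this window the Fra-1 share was close to that of all genes. Combined by gene, 62 members carried MYC and E2F1 but no Fra-1 peak, 12 carried all 3 factors, 2 carried E2F1 alone and 2 carried none. Peaks of all 3 factors were found at 4.63% of the other genes.

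Since E2F1 peaks were so common, the MYC count was also set against genes that had an E2F1 peak. MYC was found at 74 of the 76 members with E2F1, whereas 28.6% of the other genes with an E2F1 peak also had a MYC peak. Members have more annotated start sites than other genes, with a median of 8 against 5, and so a wider search window. With the canonical TSS alone, MYC peaks were at 74 members, E2F1 peaks at 76 and Fra-1 peaks at 10, and the corresponding shares of other genes were 15.5%, 57.1% and 7.18%.

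**Figure D1:**
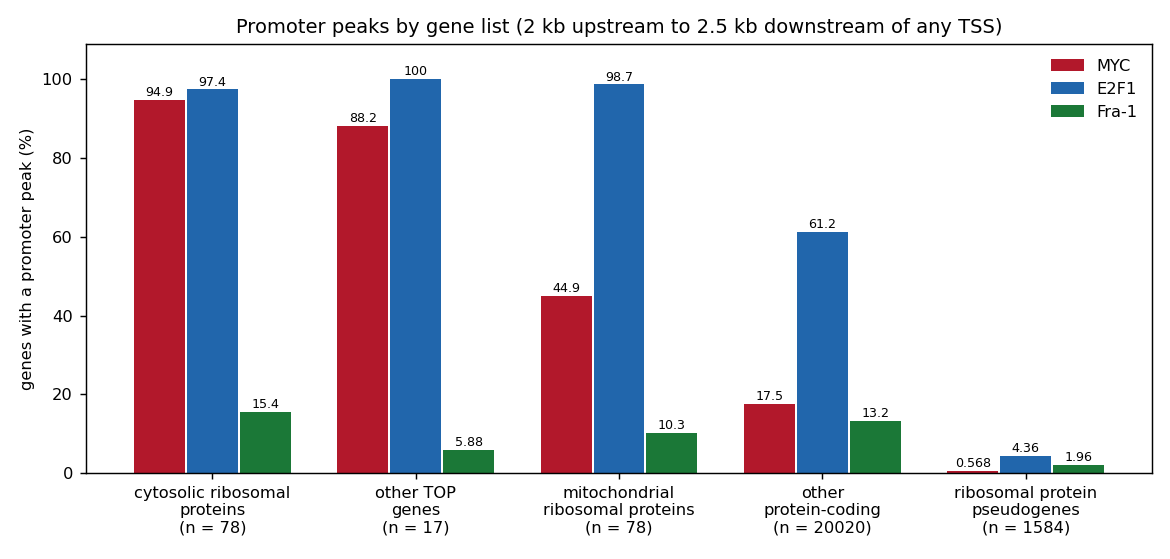
Percentage of genes in each list with at least 1 promoter peak of MYC, E2F1 or Fra-1 (bars, 1 library per factor, no error bars because there are no replicates). MYC reached 94.9% of cytosolic ribosomal protein genes but 44.9% of mitochondrial ribosomal protein genes, while E2F1 reached over 97% of both lists.

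Related gene lists were set beside the cytosolic genes. Mitochondrial ribosomal proteins, which are encoded in the nucleus and translate the mitochondrial genome's mRNAs, had E2F1 peaks at 77 of 78 genes but MYC peaks at 35 of 78 (44.9%). Among the 17 other TOP genes, MYC peaks were at 15, E2F1 peaks at 17 and a Fra-1 peak at 1. Of the 8 paralogs left out of the list, 5 had a MYC peak, 7 had an E2F1 peak and 0 had a Fra-1 peak. The 1584 annotated ribosomal protein pseudogenes, most of them processed copies without a promoter of their own, had MYC peaks at 0.568%, E2F1 peaks at 4.36% and Fra-1 peaks at 1.96%. Only uniquely aligned reads were kept, and how much of the sequence around the pseudogenes is unique was not examined.

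Peak strength was read from the fold enrichment, the ratio of the fragment pileup at the summit to the local background, with 1 added to both. Where a gene had several peaks, the largest value was used. At the members the median MYC fold enrichment was 10.8, with quartiles of 8.55 and 14.5 and a range of 4.54 to 28.2. Other genes with a MYC peak had a median of 7.16 and quartiles of 6.0 and 8.87. Of the 74 members with a peak, 64 lay above the median of the other genes and 53 above their upper quartile. Ribosomal protein genes also made up 13 of the 100 protein-coding genes with the largest MYC fold enrichment, in a ranking of 74 members and 3513 other genes. The 15 other TOP genes with a MYC peak had a similar median of 10.9, with quartiles of 8.21 and 13.7. For the 35 mitochondrial ribosomal protein genes with a MYC peak the median was 7.65.

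For E2F1 the median over members was 44.4, with quartiles of 30.6 and 55.0 and a range of 15.6 to 77.8, and the other genes with a peak had a median of 21.9 and quartiles of 13.3 and 32.3. Here 70 of 76 members lay above the median of the others. In a ranking of 76 members and 12245 other genes, 3 members were among the 100 with the largest E2F1 fold enrichment. The E2F1 median was 35.3 at the 17 other TOP genes and 30.3 at the 77 mitochondrial ribosomal protein genes with a peak. Fra-1 ran the other way. Its median over 12 members was 5.55, against 8.39 for the other genes with a Fra-1 peak, and 2 of the 12 lay above that median. The libraries differ in depth, so these values are only roughly comparable between factors.

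**Figure D2:**
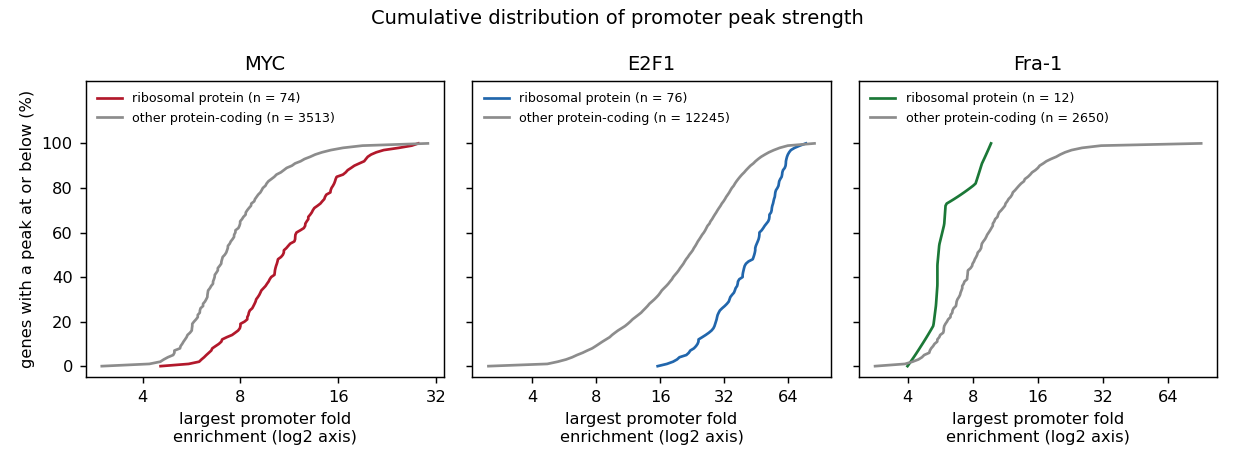
Cumulative percentage of genes with a peak (vertical axis) at or below each largest promoter fold enrichment (horizontal axis, log2 scale), for ribosomal protein genes in color and other protein-coding genes in grey. The ribosomal protein curves lie to the right of the others for MYC (medians 10.8 and 7.16) and E2F1 (44.4 and 21.9) and to the left for Fra-1 (5.55 and 8.39).

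The height of the peaks differed more than the background under them. The background was worked back from the pileup and the fold enrichment of each peak and was not measured separately. The median MYC pileup at the summit was 21.5 scaled fragments at members and 11 at other genes, over a local background of 0.947 and 0.740 scaled fragments. For E2F1 the pileup was 108.5 against 46, and the background 1.22 against 1.0. Peaks at members were also wider, with medians of 464 bp against 189 bp for MYC and 1399.5 bp against 613 bp for E2F1. More than 1 MYC peak was found at 41 of 74 members (55.4%) and at 28.1% of other genes with a peak. Fra-1 pileups were low, with a median of 12 at members and 19 at other genes.

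The E2F1 pileups at ribosomal protein genes came close to the highest value the data can hold. With 1 tag kept per position and strand, a fragment length of 113 bp and the scaling of the library, a pileup cannot exceed 135. The highest in the whole list was 134, and 72 of the 76 members lay above 60% of the ceiling, compared with 15.9% of the other genes with a peak. E2F1 pileups ranged from 64 to 132 over the members, while the local background ranged from 0.443 to 6. Across the 76 members, E2F1 fold enrichment had a Spearman's rho of −0.85 with the background and of 0.12 with the pileup. Because the background was worked back from the fold enrichment, a negative rho with it is largely built in and is no separate result. RPL10A, for example, had an E2F1 pileup of 132 over a background of 6, and RPL36 a pileup of 120 over 0.560, although RPL36 had the highest E2F1 fold enrichment of all members and RPL10A was among the 3 lowest. For MYC, no member was above 60% of the corresponding ceiling of 83.0, and the median member reached 25.9% of it.

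The highest MYC value belonged to RPL5, a large subunit protein of the 5S ribonucleoprotein particle that also binds MDM2. Its fold enrichment was 28.2 (95% Poisson interval 23.2 to 34.0), with a summit 154 bp downstream of the canonical TSS, and its E2F1 value was 60.7. These intervals cover counting error only, with the background taken as fixed. RPL29, a large subunit protein, followed at 26.5 (21.4 to 32.4), and RPL10A, also of the large subunit, at 22.4 (18.4 to 26.9). RPS15 of the small subunit reached 20.8 (16.1 to 26.6), RPLP2, an acidic stalk protein that contacts elongation factors, 19.8 (15.2 to 25.4), and RPL36 of the large subunit 19.5 (15.0 to 24.9). The intervals of neighbors in this order overlap, and that of RPL5 overlaps those of RPL29, RPL10A, RPS15, RPLP2 and RPL36.

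The lowest MYC values were those of RPL22 at 4.54 (3.11 to 6.45), RPS4X at 5.91 (3.94 to 8.61) and RPL3, which lies near the peptidyl transferase center, at 6.04 (4.19 to 8.49). The intervals of these genes do not reach those of the 6 highest. RPL22 was also the lowest member for E2F1 at 15.6 (13 to 18.5), followed by RPS3, a protein of the small subunit's mRNA entry site at 17.8 (15.4 to 20.3) and RPL10A at 19.0 (16.6 to 21.7). RPL36 had the highest E2F1 value at 77.8 (67.5 to 89.2), ahead of RPL29 at 71.1. Next came RPS7 of the small subunit at 66.5, RPL10, which joins the large subunit late in its assembly, at 64.8, RPL13A at 63.7 and RPS6 at 63.1.

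**Figure D3:**
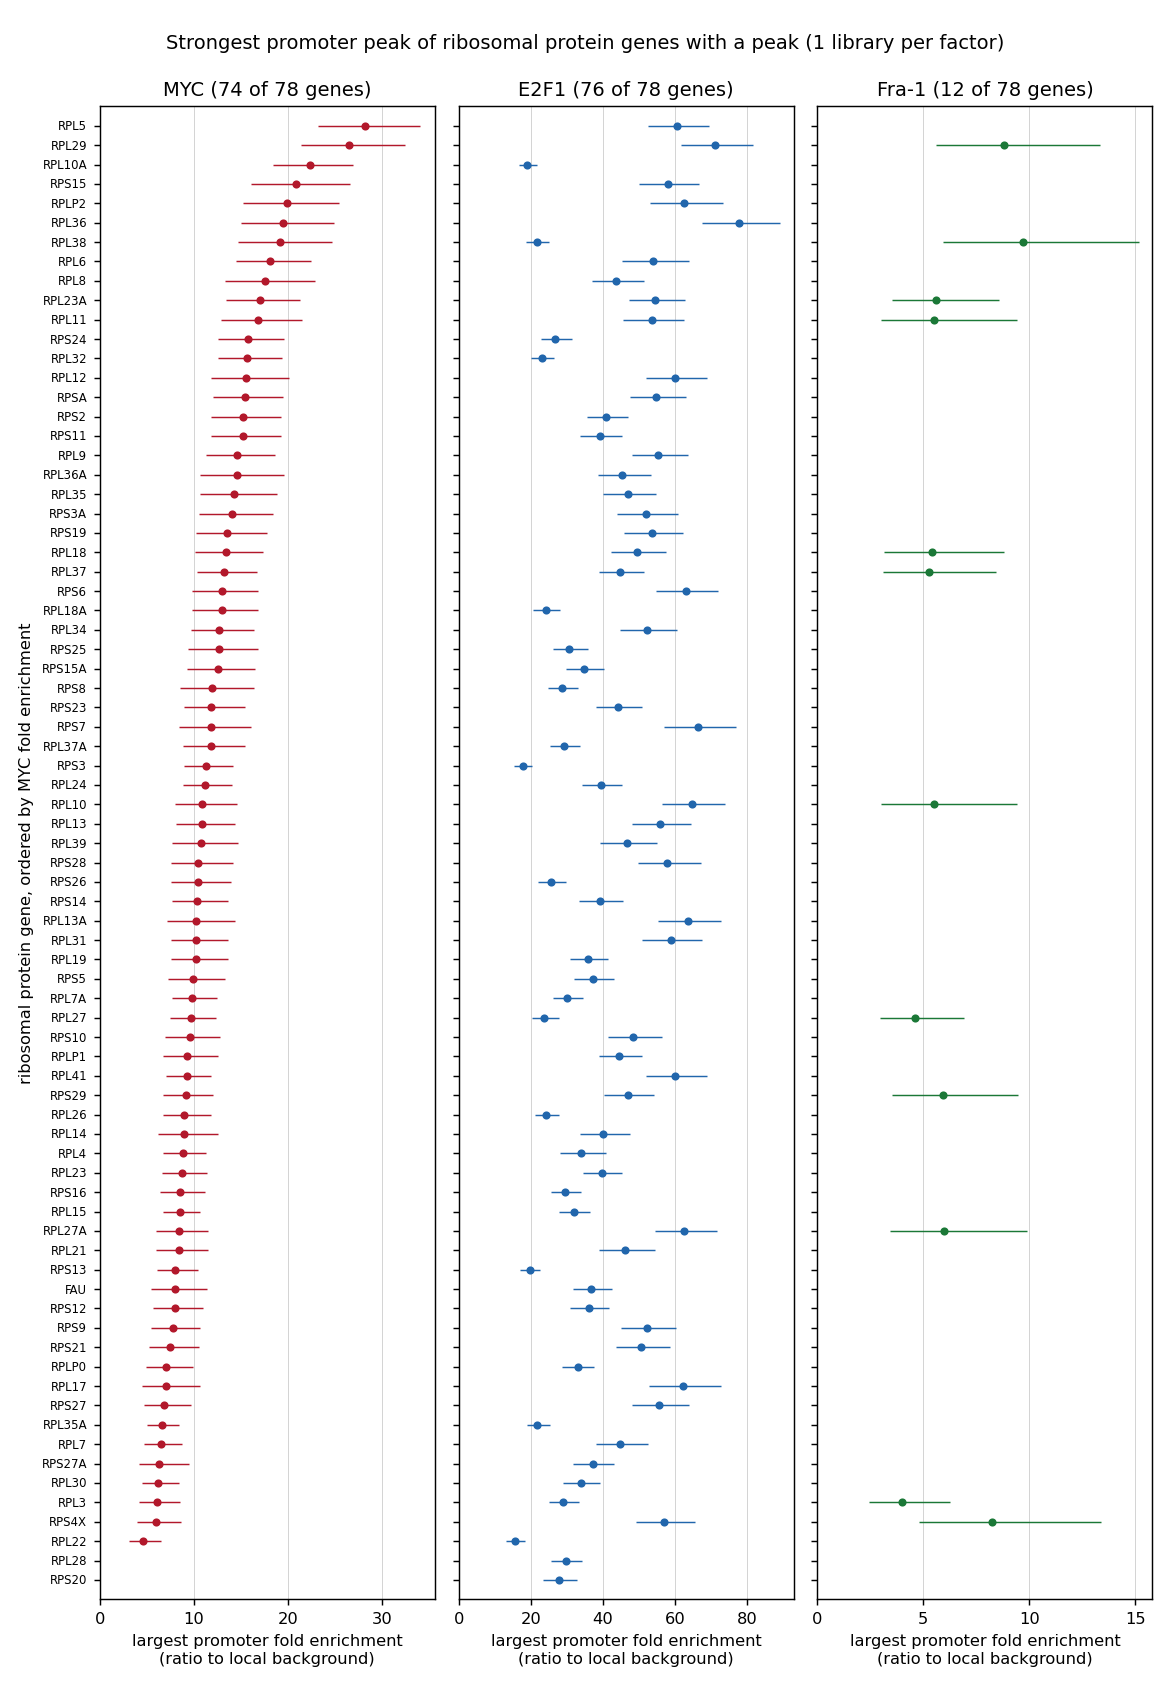
Largest promoter fold enrichment (horizontal axes, linear) of the 76 ribosomal protein genes with at least 1 peak, for MYC, E2F1 and Fra-1, ordered by MYC. Points are the values of 1 library and bars their 95% Poisson counting intervals, and a missing point means no peak. MYC ran from 4.54 at RPL22 to 28.2 at RPL5, and genes without a MYC peak stand at the bottom.

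Other well-studied members fell within these ranges. RPL11, the partner of RPL5 in the 5S particle, had a MYC value of 16.8 and an E2F1 value of 53.7. RPS6, the target of S6 kinases downstream of mTOR, had 12.9 for MYC. RPS19, the gene most often mutated in Diamond-Blackfan anemia, had 13.5 and 53.6. RPSA, which also serves as a laminin receptor, had 15.4 and 54.9, and FAU, whose product is a ubiquitin-like fusion of RPS30, had 8.0 and 36.9. The stalk genes differed among themselves, with RPLP2 at 19.8, RPLP1 at 9.29 and RPLP0 at 7.04 for MYC. The strongest MYC summit assigned to RPLP0 lay 5936 bp downstream of the canonical TSS, past the annotated end of the gene and 2200 bp from an alternative start site, while its E2F1 summit, with a fold enrichment of 33, lay 17 bp downstream of the canonical TSS.

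The values of large and small subunit genes overlapped. MYC peaks were found at 45 of 46 large subunit genes and at 29 of 32 small subunit genes, with medians of 10.9 and 10.4. E2F1 gave 46 of 46 and 30 of 32, with medians of 44.9 and 40.1. Fra-1 peaks were at 10 of 46 large and 2 of 32 small subunit genes. Genes with a small nucleolar RNA gene within their bounds on the same strand, 29 of the 78, had a MYC median of 11.1 against 10.3 for those without. The 14 genes with a divergent protein-coding TSS within 1 kb had a median of 9.80 against 10.9 for the other 64. Genes with and without a TOP tract had MYC medians of 10.9 and 10.4, and E2F1 medians of 44.9 and 35.0. Shared promoters limit the assignment, as 26 of the strongest MYC peaks and 28 of the strongest E2F1 peaks also overlapped the window of another protein-coding gene.

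E2F1 and MYC summits sat at different places in the same promoters. Positions are given relative to the canonical TSS, with negative values upstream. The E2F1 summit had a median position of 21 bp, with quartiles of −14.75 and 37, and lay in an exon at 35 members, in an intron at 16 and outside the transcript at 25. The MYC summit had a median position of 107.5 bp, with quartiles of 17.75 and 130.5, and lay in an intron at 49 members, in an exon at 8 and outside at 17. At 26 of 74 members (35.1%) the MYC summit fell into the single 50 bp stretch beginning 100 bp downstream of the TSS, which held 3.74% of the other genes' strongest MYC summits. MYC summits were downstream of the canonical TSS at 78.4% of members and at 40.8% of other genes, whose median was −47.5 bp. Measured to the nearest annotated TSS of the gene, 68 of 74 MYC summits (91.9%) and 74 of 76 E2F1 summits (97.4%) lay within 250 bp, compared with 65.8% and 73.9% at other genes.

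Within a gene, the MYC summit lay downstream of the E2F1 summit at 59 of 74 members (79.7%), by a median of 66 bp over all 74. Among 3504 other genes with both factors it was downstream in 51.7%, with a median of 5 bp. The quartiles of this distance were 17 and 124.5 bp at members and −89 and 164 bp at the other genes. The peaks themselves overlapped at 70 of the 74 members, and the summits were within 100 bp of each other at 43 and more than 500 bp apart at 5. No such shares are given here for other genes, whose peaks were narrower, so these 3 counts are not shown to be particular to members. The E2F1 fold enrichment exceeded the MYC value at 73 of 74 members, with RPL10A the exception (19.0 and 22.4). Values of different factors are only roughly comparable, and by the median ratio E2F1 was also the higher at other genes. The median ratio was 3.76 at members and 4.16 at other genes with both, where the E2F1 values lie closer to the ceiling described above at members, with a median pileup at 80.6% of it against 34.2% at other genes with an E2F1 peak. Near the ceiling, the Spearman's rho of 0.24 between MYC and E2F1 fold enrichment across members (Pearson's r of log2 values 0.26, n = 74 genes that share the input) does not describe how E2F1 binding varies with MYC. RPS6 and RPL38, for example, had E2F1 pileups of 125 and 107 and fold enrichments of 63.1 and 21.8, which correspond to backgrounds of 1.0 and 3.97.

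**Figure D4:**
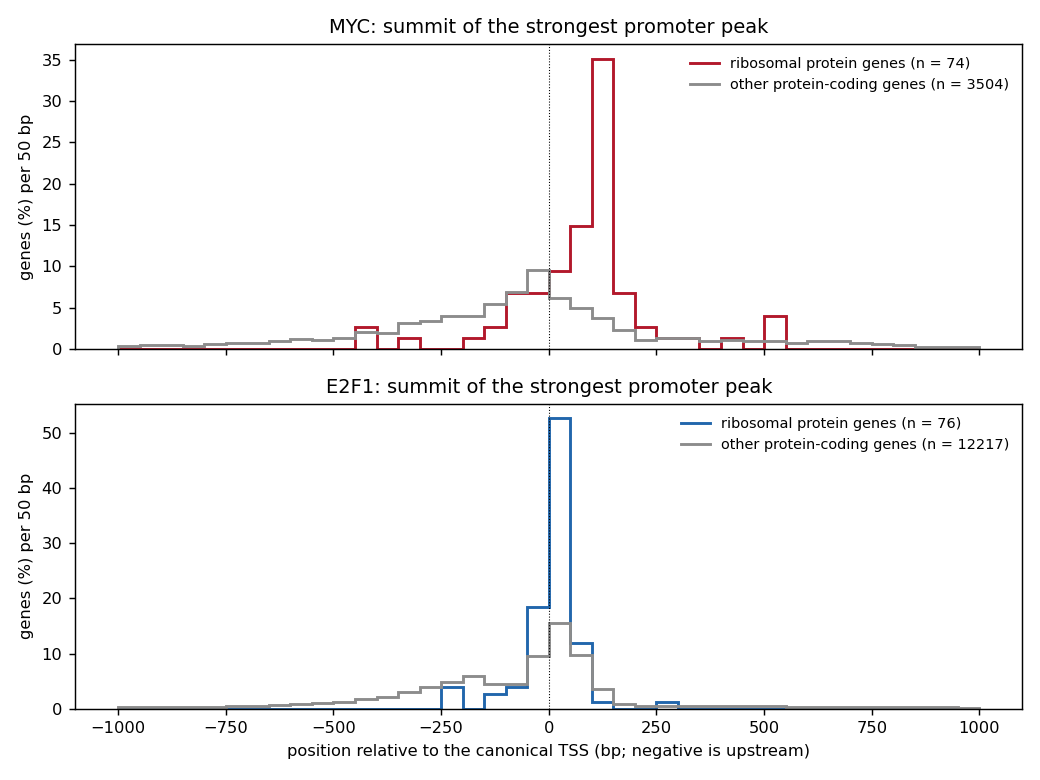
Percentage of genes (vertical axes) whose strongest MYC or E2F1 summit falls into each 50 bp bin around the canonical TSS (horizontal axis, bp), for ribosomal protein genes in color and other protein-coding genes in grey. Summits beyond 1000 bp are not drawn. The MYC summits of ribosomal protein genes gathered in the bin that begins 100 bp downstream (35.1%), and their E2F1 summits around a median of 21 bp.

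The sequence under the MYC summits was then examined in windows of 50 bp to either side, on both strands. The canonical E-box CACGTG occurred at 2 of 74 member summits (2.70%), compared with 18.6% of 2787 distinct strongest MYC summits of other genes. Within 100 bp the counts were 7 of 74 (9.46%) and 25.8%. The variants CACGCG or CACGAG or CATGCG, a list chosen after the data had been seen, occurred at 18.9% of member and 22.9% of other summits. The GC content was the same, with a median of 64.4% in both sets. The 2 members with an E-box were RPS2, with a MYC value of 15.2, and RPL19, with 10.2. Both E-boxes lie in an intron, shown in capitals in the direction of transcription, from GRCh37 chr16:2014793-2014822 on the minus strand and chr17:37356825-37356854 on the plus strand.
RPS2: tttccgacaaaaCACGTGagtcctgttggt
RPL19: tgccgcaccgcaCACGTGtccggtcgaccc

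A further motif was more frequent at the members, at both MYC and E2F1 summits. ATGGCG, the core recognized by the zinc finger protein YY1, occurred within 50 bp of the MYC summit at 19 of 74 members (25.7%) and at 8.68% of the other genes' summits. Within 50 bp of the E2F1 summit it occurred at 17 of 76 (22.4%) and 9.5%. These letters can also be a start codon and the bases after it, so annotated start codons were counted separately. A match whose own ATG is not an annotated start codon was present at 17 of 74 member MYC summits (23%) and at 6.35% of the others. On the other strand the motif reads CGCCAT. Where a G follows, that strand also holds an ATG, and such matches were not set apart as start codons. The median MYC fold enrichment was 14 at the 19 members with the motif and 10.2 at the 55 without.

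The positions of 19 matches in 18 of these genes were read out. Of them, 17 lay downstream of the canonical TSS, 12 in an intron and 5 in an exon, and 14 read ATGGCG on the strand opposite to the gene, so that CGCCAT stands on the gene's own strand. Of the 9 intronic matches in that orientation, 7 lay 50 to 100 bp downstream of the TSS. Sequences of the 4 members with the highest MYC values among these 7, and of RPL5, where the motif is in the gene's own direction, are shown with the motif in capitals. They come from GRCh37 chr1:93297763-93297792 on the plus strand for RPL5, chr19:5690358-5690387 on the plus strand for RPL36, chr12:112847321-112847350 on the minus strand for RPL6, chr1:24018347-24018376 on the plus strand for RPL11 and chr9:127624151-127624180 on the minus strand for RPL35.
RPL5: cgcaggggccggATGGCGttagattgctag
RPL36: gccggtatccgcCGCCATccggactcccgg
RPL6: ctcccaatccttCGCCATccgaacctggag
RPL11: tcctttatccgtCGCCATccatggcaggcc
RPL35: tgcggaatcgggCGCCATccgagcgctgtg

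The same motif was counted without use of any peak, a count added after the summits had been seen. In the 200 bp downstream of the canonical TSS, CGCCAT on the gene's strand was present in 28 of 78 members (35.9%), in 6.06% of 19741 other genes and in 8.85% of the 3504 other genes with a MYC peak. In the opposite orientation, ATGGCG was present in 7 members (8.97%) and 10.1% of other genes. Start codons were not set apart in these counts. Members with the motif in this window in either orientation had a median MYC fold enrichment of 10.9 (31 of 33 with a peak) and those without it 10.2 (43 of 45), a smaller difference than at the summits.

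At E2F1 summits, the ETS core and the E-box variants were also more frequent at members than at other genes. The E2F core TTCCCGC or TTCGCGC or TTGCCGC or TTGGCGC lay at 7 of 76 member E2F1 summits (9.21%) and 11.4% of 10407 other E2F1 summits. The ETS core CCGGAA lay at 17 of the 76 (22.4%) and 12.8% of the others, the E-box variants listed above at 14 (18.4%) and 11.9%, and the SP/KLF box GGGCGG at 16 (21.1%) and 24%. The GC content at E2F1 summits had a median of 60.9% at members and 64.4% at other genes. At MYC summits the E2F core was found at 8.11% of members and 8.18% of others, and AP-1 sites at 0 of 74 and 3.23%. A match of letters does not show that a factor was bound there.

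**Figure D5:**
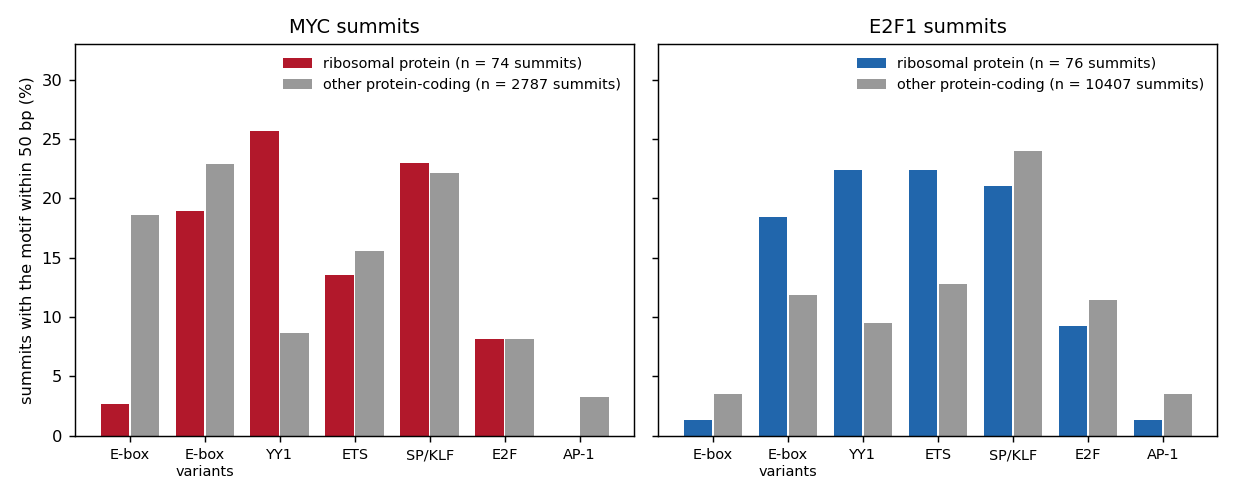
Percentage of strongest summits (vertical axis) with each motif (horizontal axis) within 50 bp on either strand, for MYC on the left and E2F1 on the right, with ribosomal protein genes in color and other protein-coding genes in grey. At MYC summits the E-box was at 2.70% of members and 18.6% of others, and the YY1 motif at 25.7% and 8.68%.

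The 12 members with a Fra-1 peak fell into separate kinds of site. At 9 of them, RPL38, RPL29, RPL27A, RPS29, RPL10, RPL11, RPL18, RPL37 and RPL27, the summit lay between −151 and −32 bp of the canonical TSS and no AP-1 site was found within 50 bp. Their fold enrichment was 9.72 (5.93 to 15.2) at RPL38 and 8.82 at RPL29. It was 6.0 at RPL27A, 5.90 at RPS29, 5.49 at both RPL10 and RPL11, 5.41 at RPL18, 5.26 at RPL37 and 4.62 at RPL27. The other 3 had an AP-1 site and lay farther from the canonical TSS. RPS4X had 8.24 with a summit 4208 bp downstream in an intron, RPL3 had 3.99 with a summit 3091 bp downstream in an intron, and RPL23A had 5.60 at −1744 bp. In all, the AP-1 site was at 3 of 12 member summits (25%), against 51.1% of the 2427 other Fra-1 summits, and CCGGAA was at 5 of 12 (41.7%), against 6.47%. The sets differ in place and composition. Member summits lay a median of 74 bp from the nearest TSS, against 527 bp at other genes, and the median GC content was 59.9% against 53.5%. Whether the motif shares differ at equal distance and GC content was not tested.

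Every one of the 12 Fra-1 peaks overlapped an E2F1 peak and 10 overlapped a MYC peak, the exceptions being RPS4X and RPL3. All 12 genes have peaks of both factors, and the E2F1 peaks of members are wide, with a median of 1399.5 bp. No such share is given here for other genes, so the overlap is not shown to be particular to members. The Fra-1 peaks were narrow and weak, with a median width of 146.5 bp and a median −log10 q of 5.15, compared with 12.5 for the other genes' strongest Fra-1 peaks. Since all 12 had MYC peaks, the share among members with MYC was 12 of 74, whereas 26.4% of the other genes with a MYC peak also had Fra-1. When the lists were cut to 4867 peaks each, the length of the MYC list, by their −log10 q, 0 members kept a Fra-1 peak, against 3.43% of other genes. In the same lists 74 members kept MYC, against 17.5% of other genes, and 75 kept E2F1, against 25.4%.

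The 4 members without a MYC peak were of different kinds. RPL28 and RPS20 had E2F1 peaks of 29.7 and 27.9 at the start site and no MYC peak, the nearest MYC summit being 21943 bp away for RPL28 and 1939284 bp for RPS20. Of the 2 members without a peak of any factor, RPS18, a small subunit gene on chromosome 6, is described here.

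RPS18 lies in a long stretch that is empty in all 3 lists. From 28411450 to 33538873 on chromosome 6, a length of 5.13 Mb with 184 protein-coding genes, no peak of MYC, E2F1 or Fra-1 was listed, so the absence at RPS18 is shared with its neighbors. In the part from 29909037 to 33344288, 0 of 152 genes had a peak of any factor. Elsewhere on the chromosome, 15.1% of 896 genes had a MYC peak, 63.4% an E2F1 peak and 11.7% a Fra-1 peak. The genes of the stretch stayed in the counts above as genes without a peak. Of the 49-base words within 1 kb of the canonical TSS of RPS18, 99.0% occur once in the reference, but the masked genome the authors aligned to was not used here. Whether RPS18 was measurable in these lists was not tested.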

How the data were processed

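The deposited peaks of 3 factors were used, with 1 library for each. Per the paper's methods and the submitters' processing notes, the authors trimmed reads (Trimmomatic 0.27), kept unique Bowtie 0.12.5 alignments to a masked hg19, and called peaks against 1 input with MACS2 2.0.10.20120913 at a q-value of 0.01. The deposited signal is the summit pileup in fragments, which MACS2 scaled by 0.451 (MYC), 0.596 (E2F1) or 0.832 (Fra-1). The deposited ratio is the fold enrichment, with a pseudocount of 1. Significance was deposited as −log10 p- and q-values. Tags after filtering numbered 12931227 (Fra-1), 23853621 (MYC), 18056168 (E2F1) and 10758036 (input). The lists hold 17320 (Fra-1), 4867 (MYC) and 36933 (E2F1) peaks. BED versions of the lists were not used. Another TF of the study was not analysed here.

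Genes and start sites came from GENCODE 44 mapped to GRCh37. Counts and medians over members were set beside those over other protein-coding genes, without tests, because there were no replicates. Depth limits each value through the fragments at the summit, which were recovered from the pileup and given a 95% Poisson interval that covers counting error only. Named with values were the 6 highest and 3 lowest members for MYC and for E2F1, every member with Fra-1 or without a MYC or E2F1 peak (1 of which is not reported here), and FAU, RPSA, RPLP0, RPLP1, RPLP2, RPS6, RPS19, RPL5 and RPL11. Genes named for a motif or a contrast (RPS2, RPL19, RPL6, RPL35) were chosen after their values were seen. The members and lists were chosen with earlier results of these data known. Alternatives covered the thresholds, the window, the TSS set, the measure of strength and equal peak numbers. Scripts used Python 3.11.15, pandas 2.3.3, numpy 2.4.6, scipy 1.17.1, matplotlib 3.10.9 and pysam 0.24.0, and the peak assignment was tested on simulated data.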

Additional observations from a re-analysis of the deposited data

How the results depend on the processing

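The counts of members with MYC (72 to 74) and E2F1 (75 to 76) stayed within 1.5 times the reported counts under every alternative tried. At a −log10 q of at least 5, the Fra-1 count fell from 12 to 7 (8.97%, against 12% of other genes) and that of all 3 factors to 6 (7.69%, against 3.09%). With 4867 peaks per list both were 0, against 3.43% and 0.869% of other genes, and no Fra-1 strength or distance could be computed. Under the other thresholds and windows these counts were 10 to 12. Measured by −log10 q, the member medians were 15.6 (MYC), 146 (E2F1) and 5.15 (Fra-1), against 6.88, 55.5 and 12.6 at other genes. Medians of pileup, a measure chosen after the data were seen, were 21.5, 108.5 and 12, against 11, 46 and 19, so the order of members and others was the same on all 3 scales. With the canonical TSS alone the median summit distance was 111 bp for MYC and 32.5 bp for E2F1, instead of 75 and 13 bp from the nearest TSS. No paired analysis was possible because each factor has 1 library and no result comes from a test. No library could be left out for the same reason.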
